A study of Homo sapiens with 2 samples.

Results

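TOP2A, the topoisomerase II isoform of dividing cells and a target of doxorubicin, was the most abundant of 8 topoisomerase and tyrosyl-DNA phosphodiesterase transcripts in SUM159 cells resistant to doxorubicin. The genes are TOP1, TOP1MT, TOP2A, TOP2B, TOP3A, TOP3B, TDP1 and TDP2, chosen by name from the 23368 gene symbols of the count files, and all 8 were found there. Their counts were measured by bulk RNA-seq in 2 libraries, replicates 1 and 2 of a single group. SUM159 is a triple-negative breast cancer line, labelled Wt in genotype, which was grown attached to the dish and made resistant by long exposure to rising doses of doxorubicin. Rounds of drug were followed by recovery in medium without it. No source used here says whether replicates 1 and 2 were grown as separate cultures, and the spread between them may be technical. Treatment-naïve libraries were not analysed here, so the levels below carry no fold change on resistance. In bulk RNA, fewer cells that use a gene and less RNA per cell cannot be told apart.

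Topoisomerases cut DNA to release the twist that transcription, replication and mitosis build up, and hold the cut end through a tyrosine until the strand is sealed. Type I enzymes (TOP1 in the nucleus, TOP1MT in mitochondria, TOP3A and TOP3B) cut a single strand. Type II enzymes, TOP2A and TOP2B, cut both strands and pass another duplex through the gap. Doxorubicin traps the type II enzymes on the cut DNA, and the trapped protein must then be removed. TDP1 cleaves mainly the bond between tyrosine and the 3′ end that TOP1 leaves, and TDP2 that between tyrosine and the 5′ end that TOP2 leaves.

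The upstream sequences of TOP2A and TOP2B are shown because these are the drug's targets and their transcripts stood far apart in level. They are the 250 bases before the outermost RefSeq start, from build GRCh38.p14, read 5′ to 3′ on the minus strand, which is the strand of both genes. TOP2A lies at chr17:40417897-40418146 and TOP2B at chr3:25664908-25665157. Capitals mark 3 short motifs searched on both strands: CCAAT or ATTGG (the CCAAT box), GGGCGG or CCGCCC (the GC box), and TTTGAA or TTCAAA (the core of the CHR element known from genes of G2 and mitosis). None of the marked matches overlap each other.
TOP2A: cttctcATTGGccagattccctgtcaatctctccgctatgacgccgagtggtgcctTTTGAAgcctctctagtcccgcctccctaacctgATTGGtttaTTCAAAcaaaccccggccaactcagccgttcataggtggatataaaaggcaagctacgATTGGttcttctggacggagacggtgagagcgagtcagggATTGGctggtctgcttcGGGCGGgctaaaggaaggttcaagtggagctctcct
TOP2B: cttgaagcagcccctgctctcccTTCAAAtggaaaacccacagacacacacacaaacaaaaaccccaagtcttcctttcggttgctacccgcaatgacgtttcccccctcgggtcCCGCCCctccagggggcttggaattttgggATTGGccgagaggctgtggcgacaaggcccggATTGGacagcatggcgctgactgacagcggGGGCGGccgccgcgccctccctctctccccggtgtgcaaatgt

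The TOP2A stretch held 4 CCAAT boxes, all in the ATTGG direction, with 1 GC box and 2 CHR motifs. TOP2B held 2 CCAAT boxes, 2 GC boxes and 1 CHR motif. Of 35116 RefSeq starts, 32.0% had at least 1 CCAAT box in the same window, 9.53% had at least 2 and 0.874% had at least 4. A GC box was present at 42.6% of starts, with at least 2 at 24.3%. A CHR motif was present at 13.3%, with at least 2 at 1.72%. TOP2B has 2 RefSeq starts, and only the outermost was searched for it. Starts were found for 7 of the 8 genes, TOP1MT having no entry, and TOP2A and TOP2B were the only members of the 7 with a CCAAT box. That 2 of 7 genes had at least 1 CCAAT box is near the 32.0% over all starts. A match is a description of letters, and no binding was measured in these cells.

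**Figure D1:**
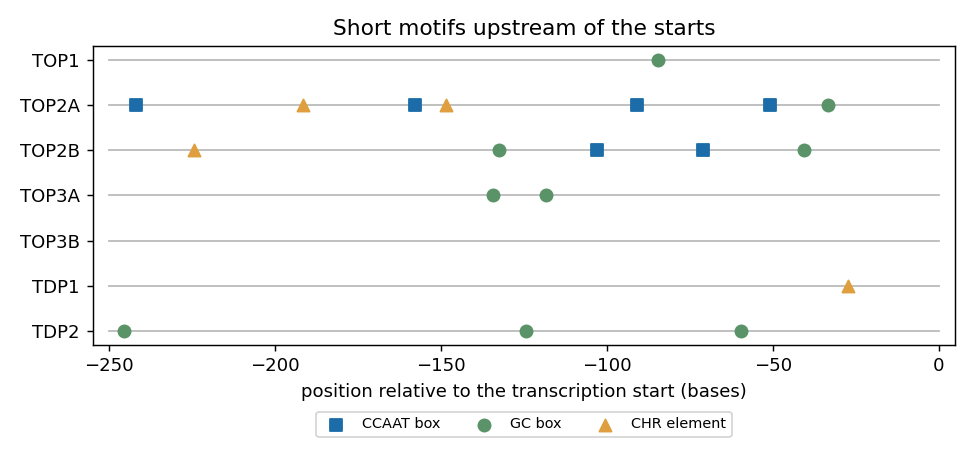
Position of each motif match, in bases relative to the transcription start, in the 250 bases upstream of 7 genes (squares CCAAT box, circles GC box, triangles CHR motif, either strand). TOP2A has 4 squares and TOP2B has 2, and no other gene shown has any.

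TOP2A, on chromosome 17 of GRCh37 from 38544777 to 38574148 on the minus strand, had 10795 counts in replicate 1 and 11676 in replicate 2. Scaled to the total of each library as counts per 1000000 (CPM), this is 468 and 649, or 559 ± 128 CPM (SD, n = 2). Replicate 2 was the higher library. The level exceeded that of 98.3% of the 12340 genes that averaged 20 counts or more. TOP2A alone held 48.6% of the counts of the 8 genes in replicate 1 and 52.0% in replicate 2. The 8 genes together took 0.0965% and 0.125% of all counts in genes.

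TOP2B, the isoform that cells also use when they do not divide, lies on chromosome 3 from 25639469 to 25706400 on the minus strand. Replicate 1 gave 3544 counts (154 CPM) and replicate 2 gave 3886 (216 CPM), with a mean of 185 ± 44.03 CPM (SD, n = 2). Its libraries did not overlap those of TOP2A. The TOP2A to TOP2B ratio of CPM was 3.05 in replicate 1 and 3.005 in replicate 2, although both genes were higher in replicate 2. Since longer transcripts collect more reads, levels of different genes are compared as CPM per kilobase, and the length chosen matters for this pair. With all annotated exons of each gene merged, 6374 bases for TOP2A and 18645 for TOP2B, the ratio was 8.85 ± 0.0856 (SD, n = 2). It was 4.17 with the longest annotated transcript, 3.21 with the coding length and 3.09 with the canonical transcript, so TOP2A was above TOP2B under each of the 4 lengths, whereas the size of the gap depends on the length. TOP2B also overlaps the microRNA gene MIR4442 on its own strand, which had 0 and 2 counts.

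**Figure D2:**
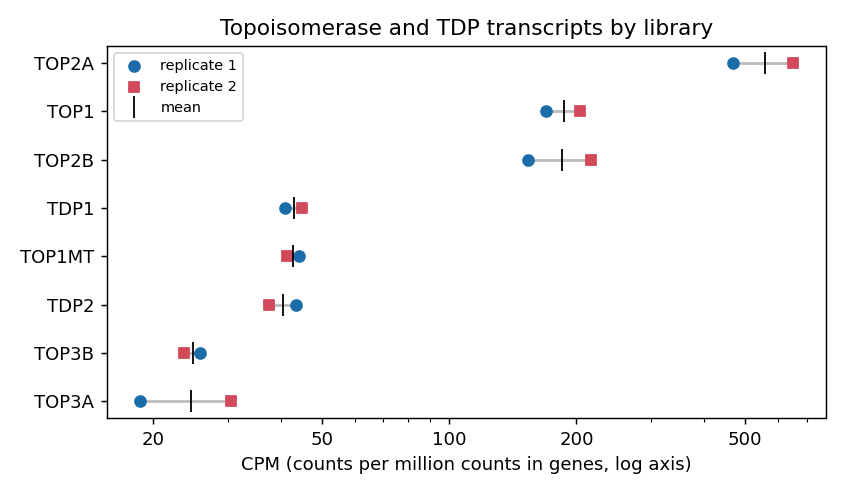
Level of the 8 genes in CPM (log axis) in replicate 1 (circles) and replicate 2 (squares), with vertical marks for the means. TOP2A lies above all others at 468 and 649 CPM, and the symbols are farthest apart for TOP3A at 18.6 and 30.6 CPM.

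TOP1, the nuclear type I enzyme and the target of camptothecins, lies on chromosome 20 from 39657462 to 39753127 on the plus strand. It had 3902 counts in replicate 1 and 3664 in replicate 2, which is 169 and 204 CPM, or 187 ± 24.3 CPM (SD, n = 2). On the CPM scale it lay within the range of TOP2B, the ratio of TOP1 to TOP2B being 1.10 in replicate 1 and 0.943 in replicate 2. Per kilobase of merged exons TOP1 had 18.4 ± 2.40 CPM against 9.92 ± 2.36 for TOP2B (SD, n = 2 each). The ratio of TOP1 to TOP2B was 2.34 and 2.004 by the coding length and 1.71 and 1.47 by the canonical transcript. With the longest transcript it was 1.07 and 0.914. TOP1 was thus above TOP2B in both libraries by merged exons, coding length and canonical transcript. By the longest transcript the order changed between the libraries, so it depended on the length chosen. Of the 100-base windows of its canonical transcript, a length equal to the reads of the study, 3.74% also occur letter for letter on chromosome 1, inside FMO4. On the opposite strand PLCG1-AS1 shares 204 exonic bases with TOP1. The pseudogenes TOP1P1 and TOP1P2 had 40 and 31 counts and 1 and 0 counts, far below TOP1.

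TOP1MT, the mitochondrial enzyme, lies on chromosome 8 from 144386554 to 144442149 on the minus strand and had 1018 and 747 counts. Its CPM were 44.2 in replicate 1 and 41.5 in replicate 2, or 42.9 ± 1.87 (SD, n = 2), and replicate 1 was slightly the higher. Per kilobase of merged exons it had 6.67 ± 0.291 CPM (SD, n = 2), where the median over all genes that averaged 20 counts or more was 6.39. It was above 51.4% of genes by this length and 49.8% by the coding length, but above 73.5% by the longest and 70.8% by the canonical transcript. Within each library, TOP1 was 2.43 and 3.11 times TOP1MT by merged exons, but 0.961 and 1.23 times by the longest transcript. The ratio was 3.01 and 3.85 by the coding length and 1.99 and 2.55 by the canonical transcript.

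The type IA enzymes TOP3A and TOP3B were the lowest of the family. TOP3A, which resolves crossed DNA strands together with the BLM helicase and also works in mitochondria, lies on chromosome 17 from 18174742 to 18218321 on the minus strand. Replicate 1 gave 428 counts (18.6 CPM) and replicate 2 gave 550 (30.6 CPM). TOP3B, which also acts on RNA with its partner TDRD3, lies on chromosome 22 from 22311397 to 22337210 on the minus strand. It had 596 and 426 counts, or 25.9 and 23.7 CPM. The genes changed places between the libraries: TOP3B was the higher in replicate 1 and TOP3A in replicate 2, with a TOP3A to TOP3B ratio of 0.718 and 1.29 in CPM. Per kilobase of merged exons the ranges overlapped, at 2.99 ± 1.03 for TOP3A and 3.73 ± 0.232 for TOP3B (SD, n = 2 each). By the longest or the canonical transcript TOP3B was the higher in both libraries. TOP3B shared the most sequence with other genes among the 8. Of its 100-base windows 13.7% occur also in its pseudogene TOP3BP1 on the same chromosome, and the antisense gene PPM1F-AS1 shares 6024 exonic bases with it. The library kit keeps the strand of the RNA, but the strand setting of the counting was not given in the sources used here, so reads of TOP3B and PPM1F-AS1 cannot be told apart. For TOP2A, TOP2B, TOP1MT, TOP3A, TDP1 and TDP2, 0 windows occurred elsewhere in the genome.

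The phosphodiesterase genes were alike in CPM. TDP1, on chromosome 14 from 90421283 to 90511108 on the plus strand, had 944 counts (41.0 CPM) in replicate 1 and 807 (44.9 CPM) in replicate 2. TDP2, on chromosome 6 from 24650207 to 24667158 on the minus strand, had 1002 and 677 counts, or 43.5 and 37.6 CPM. TDP1 was the lower in replicate 1 and the higher in replicate 2. Per length TDP2 was higher in both libraries, as its merged exons span 2977 bases against 6223 for TDP1. It had 13.6 ± 1.39 CPM per kilobase of merged exons against 6.90 ± 0.444 for TDP1 (SD, n = 2 each). The ratio of TDP2 to TDP1 was 2.22 and 1.75 in the libraries by this length, 1.86 and 1.47 by the longest transcript, 2.04 and 1.61 by the canonical transcript and 1.78 and 1.41 by the coding length.

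In CPM per kilobase of merged exons, the 8 genes ran in the order TOP2A (87.7), TOP1 (18.4), TDP2 (13.6), TOP2B (9.92), TDP1 (6.90), TOP1MT (6.67), TOP3B (3.73) and TOP3A (2.99). Neighbours in this order were taken as apart where the ranges over the libraries did not overlap, which held for 5 of 7 pairs. The exceptions were TDP1 beside TOP1MT and TOP3B beside TOP3A. TOP2A led and TOP3A was last by mean under each of the 4 lengths. TOP2A exceeded 96.5% of 11858 genes per kilobase of merged exons, 95.3% by the longest transcript, 93.5% by the canonical transcript and 86.8% by the coding length. The places between changed: TOP2B stood directly after TOP2A by the longest transcript, after TOP1 by the coding length and the canonical transcript, and after TDP2 by merged exons.

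**Figure D3:**
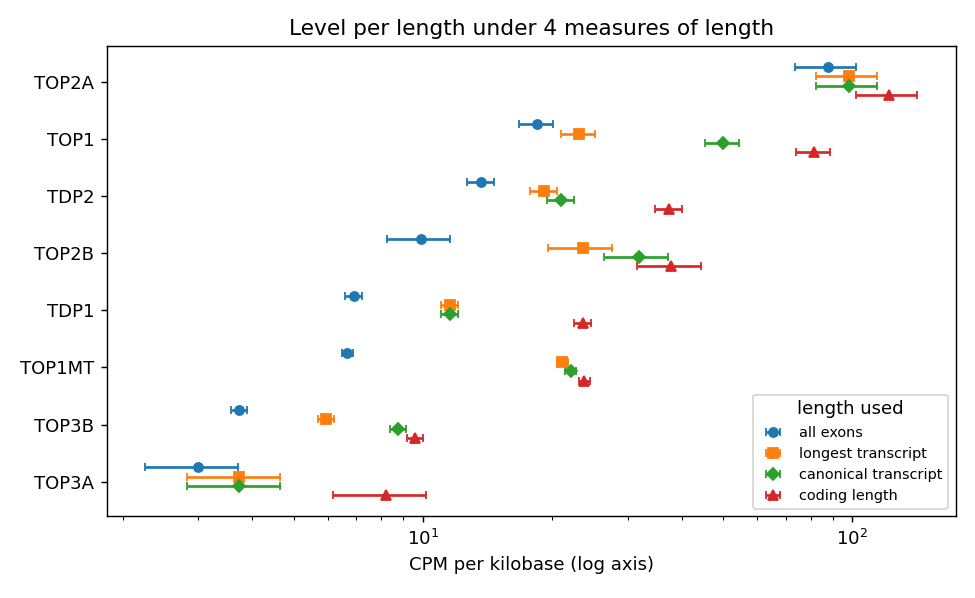
CPM per kilobase on a log axis for the 8 genes under 4 measures of length, as the mean of the libraries with bars that reach to each library. TOP2A is at the right under every length, from 87.7 to 122, while TOP1 moves from 18.4 by merged exons to 81.3 by coding length.

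The libraries, with 23044084 and 17985508 counts in genes, were compared gene by gene to learn which of these levels were the same in both. This compares 2 libraries of 1 condition, and the exact binomial test of edgeR covers counting error only. At an adjusted p below 0.05 it called 57.7% of 13744 genes, 30.1% higher in replicate 2 and 27.6% higher in replicate 1, so a call was the usual outcome. Of the 8 genes it called 5, of which 4 were higher in replicate 2. TOP3A differed the most, by 0.72 on the log2 scale (95% exact interval 0.53 to 0.91, adjusted p = 4.45e-14). TOP2B was higher by 0.49 (interval 0.42 to 0.56, adjusted p = 2.88e-47) and TOP2A by 0.47 (interval 0.43 to 0.51, adjusted p = 2.54e-131), nearly the same amount. TOP1 was higher by 0.27 (adjusted p = 6.20e-15). TDP2 was lower in replicate 2, with a log2 difference of -0.21 (adjusted p = 0.00762). TOP1MT, TOP3B and TDP1 did not pass, with log2 differences of -0.09, -0.13 and 0.13 and adjusted p of 0.283, 0.249 and 0.0971. Over all genes tested the median size of the log2 difference was 0.31, which TOP3A, TOP2B and TOP2A exceeded.

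Across 11858 genes the difference between the libraries moved with gene length. Spearman's rho of the log2 difference on merged exonic length was 0.55, over genes that share their libraries and are not independent. The trend gives a difference of 0.47 at the length of TOP2B, 0.29 at that of TOP1 and -0.20 at that of TDP2, near to what was measured for each. For TOP2A it gives 0.10 and for TOP3A 0.20, less than measured. With the trend removed, each gene was tested by the exact binomial test of R against the share expected from the trend. This test called TOP2A and TOP3A as higher in replicate 2, by 0.37 (adjusted p = 2.61e-81) and 0.51 (adjusted p = 1.29e-07). It called TOP1MT and TOP3B as lower, at -0.19 (adjusted p = 0.0133) and -0.24 (adjusted p = 0.0165). It then called 52.1% of 13020 genes, 26.2% as higher in replicate 2 and 26.0% as higher in replicate 1. TOP1, TOP2B and TDP2 were no longer called, at -0.026, 0.017 and -0.0088, and TDP1 again did not pass, at 0.043. With a trend on the longest transcript, TOP2A at 0.24 (adjusted p = 4.79e-35) and TOP3A at 0.39 (adjusted p = 8.70e-05) were still called higher in replicate 2 by the same exact binomial test, which called 49.2% of genes, 25.1% higher in replicate 2 and 24.0% higher in replicate 1. TOP1MT changed its direction with this trend, to 0.16 (adjusted p = 0.0483), and TOP1 was called lower at -0.19 (adjusted p = 6.25e-08), so TOP2A and TOP3A were the only members called in 1 direction with and without each trend.

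**Figure D4:**
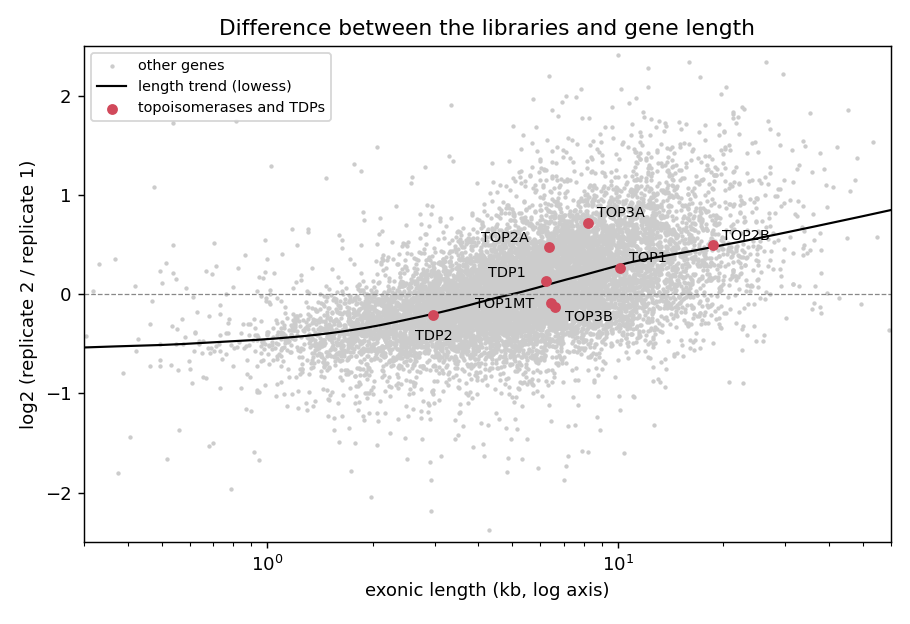
Log2 difference between replicate 2 and replicate 1 against merged exonic length (log axis) for 11858 genes (grey, 36 of them outside the axes), with the length trend as a line and the 8 genes in red. TOP2B, TOP1 and TDP2 lie on the line, and TOP2A and TOP3A lie above it.

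Transcripts for most of the enzymes that repair or accompany topoisomerases were also found. Of 75 genes in lists of partners, adduct repair, mitochondrial DNA maintenance, mitosis, meiotic relatives, pseudogenes and drug response, 74 were in the files and 72 averaged 20 counts or more. The share of called genes between the libraries can be read against 57.7% over all genes, 30.1% higher in replicate 2 and 27.6% higher in replicate 1. All calls in the lists were made without removal of the length trend. In the TOP1 adduct repair list all 13 genes reached this minimum, with a median of 10.1 CPM per kilobase of merged exons against 8.41 for the 8 genes (18.5 against 20.1 by the longest transcript, where the order turns), and 6 were called higher in replicate 2 and 3 in replicate 1. By merged exons the highest was FEN1, the flap endonuclease, with 57.5 ± 1.25, and the lowest was ERCC4, the XPF nuclease subunit, with 1.32 ± 0.329 CPM per kilobase (SD, n = 2 each). PARP1 exceeded FEN1 by the canonical transcript, at 92.6 against 62.7, and by the coding length, at 121 against 111. By the coding length ERCC1 was above both, at 128. PARP1, which senses single-strand breaks, had 368 ± 25.6 CPM, and XRCC1, the scaffold it recruits, had 64.4 ± 3.24 CPM (SD, n = 2 each).

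All 14 genes of the TOP2 adduct repair list reached the minimum, with a median of 8.25 CPM per kilobase. Of these, 12 were called higher in replicate 2 and 1 in replicate 1, before removal of the length trend. Over all genes tested these shares were 30.1% and 27.6%. The highest was XRCC6, the Ku70 subunit that binds broken ends, with 169 ± 10.4, and the lowest was LIG4, the ligase of end joining, with 1.22 ± 0.256 CPM per kilobase (SD, n = 2 each). ZNF451, the SUMO ligase that prepares trapped TOP2 for TDP2, had 28.5 and 42.2 CPM. Per kilobase of merged exons its mean was 2.15 ± 0.590 against 13.6 ± 1.39 for TDP2 (SD, n = 2 each), and it was below TDP2 under each of the other lengths too. Transcripts for the nuclease complex that can also remove the trapped protein were found, MRE11A at 34.7 and 50.2 CPM, RAD50 at 139 and 216 CPM and NBN at 44.7 and 58.2 CPM. The protease gene SPRTN, listed as C1orf124, had 18.0 and 23.9 CPM. PRKDC, the catalytic kinase of end joining, differed most between the libraries in this list, with 209 and 591 CPM. Its merged exons span 29072 bases, and the part of length in this difference was not tested.

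The TOP3 partners were low, as were TOP3A and TOP3B. Their median was 3.96 CPM per kilobase over 5 genes, of which 2 were called higher in replicate 2 and 1 in replicate 1. By merged exons RMI1 was the highest with 6.32 ± 0.508 and TDRD3 the lowest with 0.961 ± 0.159 CPM per kilobase (SD, n = 2 each). RMI1 was not the highest by any other length, and by the longest transcript FMR1 led with 8.95. BLM had 19.3 and 30.5 CPM, and per kilobase of merged exons 2.45 in replicate 1 and 3.88 in replicate 2, where TOP3A had 2.26 and 3.72. The TOP2 partners, which include condensin and HMGB genes, had a median of 15.1 CPM per kilobase over 10 genes. Of these, 8 were called higher in replicate 2 and 2 in replicate 1. For both lists, the shares over all genes tested were 30.1% higher in replicate 2 and 27.6% higher in replicate 1. By merged exons the TOP2 partners ranged from CTCF, the chromatin loop protein, at 6.51 ± 1.54 to HMGB2, a DNA-bending protein, at 50.4 ± 13.7 CPM per kilobase (SD, n = 2 each). In replicate 2 NCAPD2, at 57.7, and SMC4, at 44.4, were above HMGB2, at 40.7. By coding length HMGB1 was the highest with 407, and CTCF was the lowest by merged exons only.

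Genes of mitochondrial DNA maintenance, the setting of TOP1MT, had a median of 12.9 CPM per kilobase of merged exons over 8 genes. Of these, 2 were called in each direction, where 30.1% of all genes were called higher in replicate 2 and 27.6% in replicate 1. By mean SSBP1, which binds single strands, was the highest with 18.9 ± 4.31, and POLG2, the accessory subunit of the polymerase, the lowest with 2.23 ± 0.416 CPM per kilobase (SD, n = 2 each). In replicate 2 SSBP1, at 15.8, was not the highest. TOP1MT, at 6.67 ± 0.291 CPM per kilobase (SD, n = 2), lay between SSBP1 and POLG2 by merged exons, below the list median. By the longest transcript TOP1MT had 21.1 against a list median of 15.0, and by coding length both were 23.8. SPO11, the meiotic relative of the type II enzymes, had 0 counts in both libraries, where counting error alone leaves room for levels of 0.130 and 0.167 CPM (3 counts in a library). TOP6BL, its partner, listed as C11orf80, had 13.2 ± 2.33 CPM (SD, n = 2). SLFN11, whose product sensitises cells to topoisomerase poisons, had 91.1 ± 7.79 CPM (SD, n = 2).

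TOP2A levels are known to peak in G2 and mitosis, and 19 genes of these phases were set beside it. By mean, TOP2A exceeded all 19 in CPM, 17 of them per kilobase of merged exons and 12 per kilobase of coding length. In replicate 1, TPX2 at 76.7 and UBE2C at 80.1 CPM per kilobase of merged exons were above TOP2A at 73.5. The median of the list was 28.4 CPM per kilobase, from CENPE, a kinetochore motor, at 5.55 ± 2.12 to CCNB1, the mitotic cyclin B1, at 172 ± 6.98 (SD, n = 2 each). Of the 19 genes, 11 were called higher in replicate 2 and 2 in replicate 1, where the shares over all genes were 30.1% and 27.6%. The 3 genes whose CPM per kilobase in both libraries lay nearest to TOP2A, at 73.5 and 102, were ACTN1, an actin crosslinker, at 71.9 and 97.7, TPX2, a spindle assembly factor of the same list, at 76.7 and 98.2, and COL5A1, a collagen chain, at 71.2 and 115. The nearest to TOP2B, at 8.25 and 11.6, were SUGP2 at 8.25 and 11.5, GMEB2 at 8.23 and 11.5 and ELF4 at 8.20 and 11.4. These distances rest on 2 libraries and describe like levels only.

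**Figure D5:**
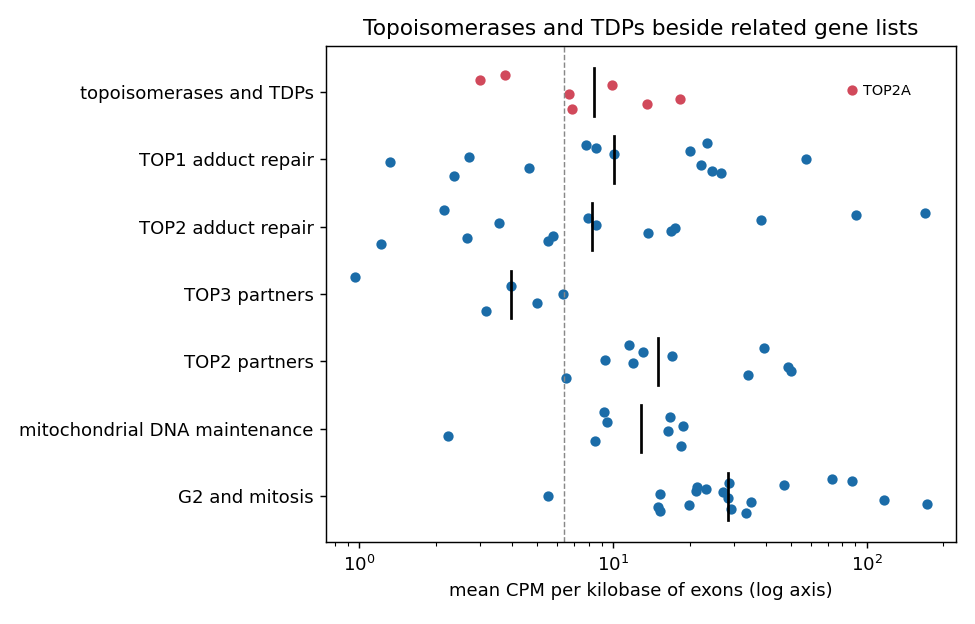
Mean CPM per kilobase of merged exons, on a log axis, of the 8 genes (red) and of 6 related lists (blue), with 1 point for each gene, black bars for medians and a dashed line at 6.39, the median of all genes averaging 20 counts or more. TOP2A at 87.7 stands apart from the other 7 red points, which lie between 2.99 and 18.4.

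The labelled line was checked against its markers. The mesenchymal genes VIM, FN1, CDH2 and CD44 were all above 196 CPM in each library, and ESR1 had 11 and 9 counts and PGR 2 and 0. ERBB2 had 99.7 ± 6.56 CPM (SD, n = 2). The luminal genes CDH1, EPCAM and KRT19 summed to 1.78 and 2.45 CPM. Of the leukocyte markers, CD3E was at 0, PTPRC had 48 and 31 counts, and CD14 had 356 and 137. Of 3 endothelial and blood markers, which summed to 1.08 and 1.11 CPM, HBB was at 0. The part of these levels in the results above was not tested.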

How the data were processed

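The files deposited by the authors hold whole-number counts for each gene symbol, without normalization, in 2 libraries. Per the methods and the submitters' processing notes, 100-base single-end reads of polyadenylated RNA from a directional kit were checked with FastQC, mapped to hg19 with HISAT2 and counted inside genes with HTSeq. Not given in the sources used here were the versions, the gene models and the setting for strand. Each count of 1 equals 0.0434 CPM in replicate 1 and 0.0556 CPM in replicate 2. Intervals and limits cover counting error only, since reads are not independent molecules.

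CPM were computed from the total of all counts. Coordinates and lengths came from GENCODE v44 lifted to GRCh37, the build of the files, for 21185 of 23368 symbols (90.7%), matched by symbol or RefSeq synonym. The canonical transcript was added as a length, and a trend on the longest transcript as a correction, after seeing the data. Exact 100-base windows were searched in GRCh37 on both strands.

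With 1 group no test between conditions was possible. The libraries were compared in edgeR by its exact binomial test, with adjustment after Benjamini and Hochberg over genes with at least 10 counts over both, after a trial on simulated counts. The length trend was a lowess with span 0.3 over genes with a mean count of at least 20. With a trend removed, the exact binomial test of R replaced that of edgeR. The dispersion between the libraries in edgeR, after TMM scaling, gave a coefficient of variation of 22.2%. A mean count of 20 is the minimum of the study's methods.

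The 8 genes and the lists were chosen with earlier results of these data known. Named genes are the 8, the highest and lowest of each list by mean CPM per kilobase of merged exons, those under a mean count of 20, genes that overlap the 8, and the 3 nearest to TOP2A and TOP2B. PARP1, XRCC1, ERCC1, ZNF451, MRE11A, RAD50, NBN, SPRTN, PRKDC, BLM, FMR1, NCAPD2, SMC4, HMGB1, UBE2C and the cell type markers described singly were picked after their values were seen. TOP3BP1 was not among the symbols of the files. A leukocyte marker of the lists is not reported here. Genes that overlap TOP1MT, TOP2A and TOP3A share 0 exonic bases with them and are not named. Computations used R 4.3.3 (edgeR 4.0.16, and DESeq2 1.42.0 for size factors only) and Python 3.11.15 (numba 0.67.0, pandas 2.3.3, numpy 2.4.6, scipy 1.17.1).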

Additional observations from a re-analysis of the deposited data

How the results depend on the processing

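The median of the 8 genes, 8.41 CPM per kilobase of merged exons, became 20.1 with the longest transcript, 30.6 with the coding length and 21.5 with the canonical transcript. The TOP2A to TOP2B ratio of 8.85 became 4.17, 3.21 and 3.09 in the same order. Here the cause is the length itself, since the counts stay as they are. Leaving out each library in turn gave medians from 7.56 to 9.40 and ratios from 8.79 to 8.91. Scaling by TMM or by DESeq2 size factors gave medians of 8.41 as well. The comparison of the libraries called from 6400 to 7958 genes over its settings, in which 12340 to 16792 genes were tested. TOP1, TOP2A, TOP2B, TOP3A and TDP2 were called under every scaling and filter tried, and 4 of the 8 genes were called under each length trend. Over all genes tested, 57.7% were called in the main setting. With the trend on merged exons the share was 52.1%, and with that on the longest transcript 49.2%. The calls of 5 and 4 of the 8 genes were near these shares. With the trend on merged exons TOP1 turned to -0.026. With that on the longest transcript, chosen after seeing the data, TOP1 turned to -0.19, TOP1MT to 0.16 and TDP2 to 0.024. TOP3B passed with the first trend and not with the second (adjusted p = 0.0684 by an exact binomial test). A minimum mean count of 100 in place of 20 kept 71 of 74 listed genes in place of 72. No paired analysis was possible because both libraries belong to 1 group. Each of the 8 genes had at least 426 counts in each library. Depth was not varied, and at this depth the 95% exact interval of TDP1 between the libraries reached from -0.006 to 0.27.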
